A study of Saccharomyces cerevisiae with 4 samples.

Results

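The regulators of meiotic entry described here are 6 genes of budding yeast, Saccharomyces cerevisiae, taken by name from a table of 6678 open reading frames (ORFs): IME1, IME2, IME4, RME1, RIM11 and NDT80. All 6 were present in the table, in each of 4 libraries. The libraries were made from total RNA of strain SEY6210 and of a strain derived from it that lacks PHO23, the gene of a component of Rpd3L, a complex that removes acetyl groups from histones. Each strain was sampled in both of 2 states: in mid-log growth in rich medium (YPD), and after a further 2 h in SD-N, a medium without nitrogen. The groups are therefore the starved pho23 deletion, the starved wild type, the growing pho23 deletion and the growing wild type. Each group has 1 library, so no difference below has a replicate check, and no p-value is given.

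Both strains share the SEY6210 background, which is of mating type alpha. It carries leu2-3,112 and ura3-52, together with his3-∆200 and trp1-∆901, and in addition suc2-∆9 and lys2-801. It is GAL. The deletion strain, JMY047, has PHO23 replaced (pho23∆::HIS5), and the labels name no further strain of either genotype. Nitrogen loss cannot be told apart from the other differences between YPD and SD-N. Levels are in RPKM, reads per kilobase of ORF and 1000000 reads, which allows levels of different genes to be compared per length. In bulk RNA, fewer cells with a transcript and less transcript per cell cannot be told apart.

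Entry into meiosis in yeast is normally a decision of diploid cells that lack nitrogen and a fermentable carbon source. Ime1, the master activator, is brought to the promoters of early meiotic genes by Ume6, a DNA-binding protein that otherwise recruits the Rpd3 deacetylase complex to keep these genes off. Rim11, a kinase of the GSK3 family, phosphorylates Ime1 and Ume6 and so allows them to join. Ime2, a meiosis-specific kinase, acts after Ime1, and Ndt80 then switches on the middle genes of meiosis and spore formation, its own gene included. Rme1 holds IME1 down in haploid cells, partly by driving the non-coding RNA IRT1 through the IME1 promoter, and diploid cells shut RME1 off through the a1-alpha2 repressor. Ime4 methylates adenosines in meiotic mRNA, and in haploid cells the antisense RNA RME2 blocks IME4. A haploid strain such as SEY6210 is thus a setting in which IME1 and IME4 are normally held back, while RME1 is not shut off.

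The promoter elements named above are shown first, because the levels of these genes are usually discussed through them. Sequences are from the RefSeq R64 assembly, the same build as sacCer3, and run 5′ to 3′ on the strand of the gene, with matches in capitals. Positions are counted back from the start codon. The letters shown are ACCTCAA for the Rme1 site and GGCGGC for the core of the Ume6 element URS1. For the middle sporulation element (MSE), which is bound by Ndt80 and by the repressor Sum1, they are GNCACAAA. A shorter MSE form, CACAAA, was also searched and is only counted below. MSE alone means the longer form. Both strands were searched. The stretch before IME1 (chrX:607581-607711, minus strand) is shown because it holds both Rme1 sites. It lies beyond the annotated start of IRT1. The stretch before IME2 (chrX:220820-220955, plus strand) holds both of its URS1 cores. Each short stretch before the other genes shows 1 match, and NDT80 has 2 such stretches. An Rme1 site also stood 1446 bases before RME1, on the other strand, and is not printed. The IME4 match lies inside the ORF YGL193C. The short stretches before IME4 and NDT80 are on the plus strand (chrVII:142003-142030, chrVIII:356329-356358 and chrVIII:356465-356494), and that before RME1 on the minus strand (chrVII:584294-584321).
IME1, Rme1 sites at 2038 and 1957: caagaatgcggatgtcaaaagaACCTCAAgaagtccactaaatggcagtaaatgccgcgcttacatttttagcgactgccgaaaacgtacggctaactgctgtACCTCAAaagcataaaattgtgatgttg
IME2, URS1 at 550 and 455: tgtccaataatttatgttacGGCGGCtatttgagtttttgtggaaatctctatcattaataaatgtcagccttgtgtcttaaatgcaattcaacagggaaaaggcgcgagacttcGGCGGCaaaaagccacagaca
IME4, URS1 at 232: atgcgtctttaGGCGGCttttggcgtac
RME1, URS1 at 418, read on the other strand: cacgtaaaatgGCCGCCggagtgagatg
NDT80, MSE at 221: ccaggccgtatGACACAAAagagtagaaaa
NDT80, MSE at 85, read on the other strand: ttgccctccatTTTGTGTCacctatttaag

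How common these letters are varied between elements. Of all 5976 ORFs with 600 bases of sequence before them, 11.4% held a URS1 core and 1.10% held at least 2, as IME2 does. The MSE stood in 8.20% of these windows and at least 2 of them, as before NDT80, in 0.469%. Its shorter form, CACAAA, stood in 34.3% of these windows, and 7.13% held at least 2. In their 600 bases IME1 had 2 matches to the shorter form, IME2 had 1 and NDT80 had 3. The Rme1 site stood in 23.3% of 5969 windows of 2100 bases, and 3.03% held at least 2, as IME1 does. RIM11 had none of these motifs, the shorter MSE form included, in its 600 bases. A match describes the sequence and is not shown to be bound in these cells.

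**Figure D1:**
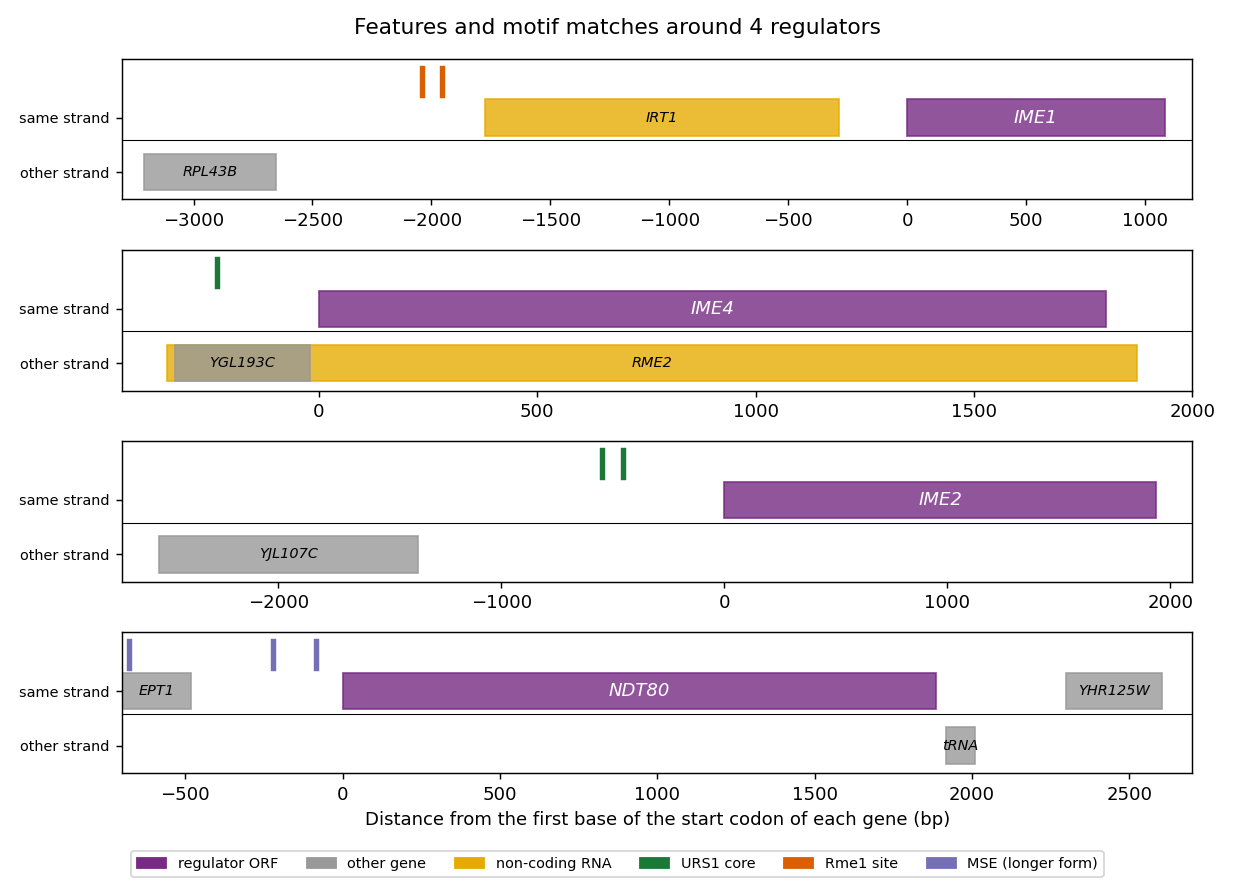
Maps of the IME1, IME4, IME2 and NDT80 loci, drawn to scale from the RefSeq annotation, with distance in bp from the first base of each start codon on the horizontal axis, the strand of the gene above the line and the other strand below it. Vertical ticks mark matches to the Rme1 site, the URS1 core and the MSE. Both Rme1 sites lie beyond the IRT1 end that is farther from IME1, and RME2 runs antisense across the whole of IME4. The third MSE tick before NDT80 lies inside the coding sequence of EPT1.

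The labels were checked first. PHO23 stood at an RPKM of 0.0546 in the starved deletion and 23.4 in starved wild type, and at 0.130 in the growing deletion and 12.3 in growing wild type. A low-end step in the values corresponds to a rough estimate of 19.6 to 27.5 M reads per library (M, 1000000), from which 95% counting intervals are given below. They cover counting error only. The a1 gene of the a mating type (listed as HMRA1) was listed at 0 in all 4 libraries, and the 4 alpha-specific genes together reached an RPKM of 2980 in the starved deletion, 19169 in starved wild type, 2148 in the growing deletion and 8081 in growing wild type. The 7 a-specific genes, normally silent in an alpha strain, summed to 647 in the starved deletion and 2883 in starved wild type, against 17.1 and 58.1 in the growing deletion and growing wild type. Mating-type transcripts thus moved with genotype and with medium. Their part in the levels of the meiotic regulators was not tested. MATALPHA1 and MATALPHA2 share reads with silent copies, and the table lists the same value for both copies.

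IME1 was the regulator with the largest genotype difference in starved cells. Its level was an RPKM of 21.6 in the starved deletion (95% counting interval 19.8 to 23.6), against 5.75 in starved wild type (4.78 to 6.87). In growing cells it was 6.63 in the deletion (5.74 to 7.62) and 5.31 in wild type (4.45 to 6.30). The starved deletion was thus high, and the other 3 libraries lay close together. The genotype ratio in starved cells was 3.76 (3.08 to 4.62), a log2 fold of 1.74 on the scale of RPKM + 1 used for all folds here. It was the 37th highest genotype fold in starved cells of the 6678 ORFs. In growing cells the fold was 0.27, and the counting interval of the ratio, 0.993 to 1.56, includes 1.

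Between media, IME1 differed by more than 2-fold in the deletion and not in wild type. IME1 was 3.26 times higher in the starved than in the growing deletion (2.77 to 3.87; log2 fold 1.57). In wild type the ratio of starved to growing cells was 1.08 (0.839 to 1.40; log2 fold 0.10), a value whose sign turned with median-of-ratios and upper-quartile scaling, reaching -0.35 at the lowest. The starvation fold of the deletion exceeded that of wild type by 1.47, where the median over all ORFs was -0.15 4.96% of ORFs lay at least 1 above 0 and 5.39% at least 1 below it, 10.3% in all. IME1 was the only regulator among the 6 past that limit, and it stayed there under all 6 alternative settings. Whether the genotype effect differs between the media could not be tested with 1 library each.

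IME1 lies on chromosome X (YJR094C, 604569 to 605651, minus strand). Its upstream neighbour is IRT1 (605936 to 607424), the non-coding RNA that Rme1 drives, and no ORF of the table lies inside IRT1, so the table gives no value for it. Across the 2653 bp of sequence before IME1 and on the other strand stands RPL43B, a ribosomal protein gene. Its RPKM was 1326 in the starved deletion and 339 in starved wild type, a log2 fold of 1.96, and 3222 in the growing deletion against 2859 in growing wild type. The next gene downstream, FIP1, which acts in mRNA polyadenylation, was at 55.9 in the starved deletion and 65.5 in starved wild type. The closest profile over the 4 libraries, by root mean square difference of mean-centred log2 levels, was that of AIM44, at 0.13, among 6033 ORFs that reached an RPKM of 10. The second was RBH2, at 0.16. AIM44 had an RPKM of 79.1 in the starved deletion, 29.4 in starved wild type, 30.3 in the growing deletion and 25.2 in growing wild type.

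RME1, the haploid repressor of IME1, was the most abundant of the 6 in every library. Its RPKM was 159 in the starved deletion and 127 in starved wild type, and 118 in the growing deletion and 55.1 in growing wild type. Growing wild type was the low library, and the starved deletion the high one. In growing cells the deletion had 2.14 times the wild-type level (2.00 to 2.30; log2 fold 1.09), the 192nd highest fold of the table. This fold lay just under 2-fold with median-of-ratios scaling. In starved cells the ratio was 1.25 (1.18 to 1.32; log2 fold 0.32). IME1 and RME1 thus each had their highest level of the 4 libraries in the starved deletion.

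RME1 lies on chromosome VII (YGR044C, 582990 to 583892, minus strand). The ORF 41 bp upstream of it, YGR045C, had an RPKM of 2.77 or less in all 4 libraries. From growing to starved cells the RME1 level was 2.31 times higher in wild type (log2 fold 1.19) and 1.35 times higher in the deletion (0.43). The nearest profiles were those of HAP5, a subunit of the CCAAT-binding activator of respiratory genes, at a distance of 0.05, and of YBR138C, at 0.07. Diploid cells repress RME1 together with other haploid-specific genes. The 5 other haploid-specific genes examined (GPA1, STE4, STE18, FUS3 and FAR1) had a genotype median of -1.06 in starved and -1.0 in growing cells, and 3 of them starved and 2 growing were at least 2-fold lower, against 5.14% and 2.95% of all ORFs. All 5 were below 0 in both media, as were 30.2% of all ORFs, and RME1 was above 0 in both.

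**Figure D2:**
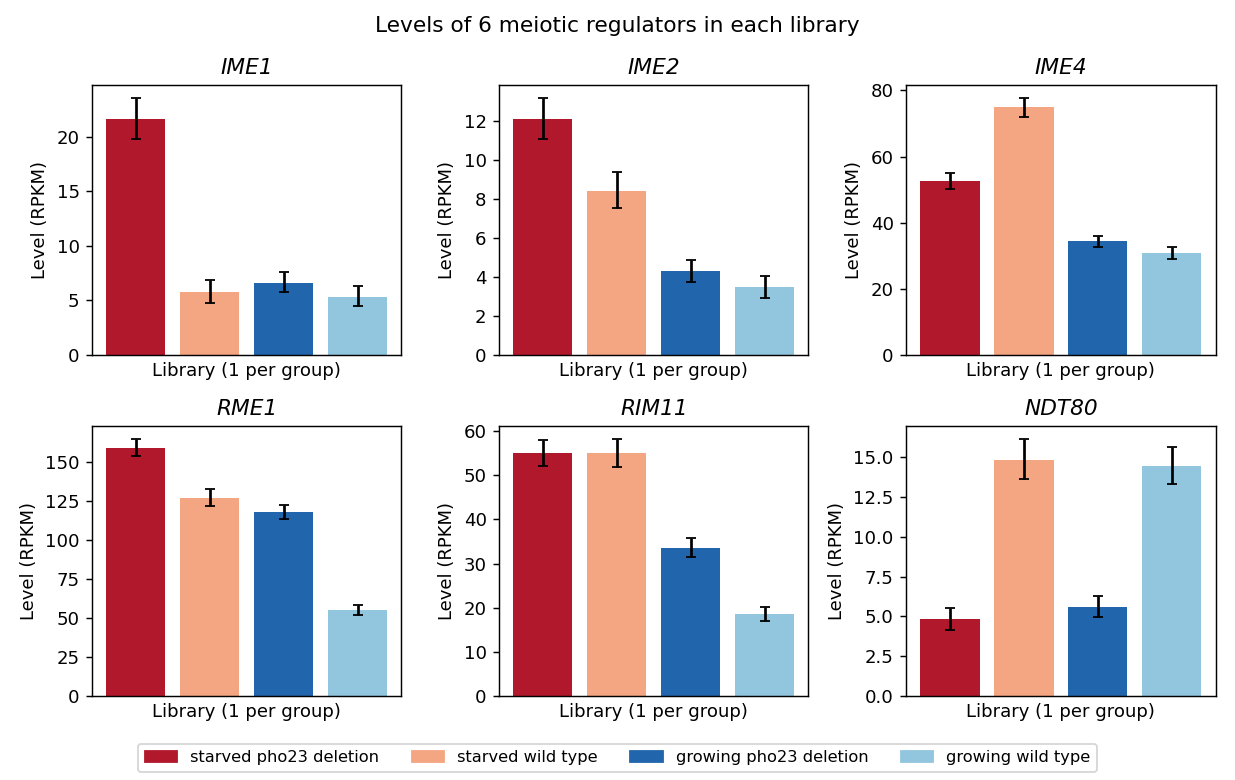
RPKM of each of the 6 regulators in the 4 libraries, 1 bar per library, with bars from 0 and error bars that are 95% counting intervals from the estimated depth. IME1 stands out in the starved deletion at 21.6, RME1 and RIM11 are lowest in growing wild type, and NDT80 is low in both deletion libraries, at 4.83 starved and 5.58 growing.

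RIM11, like RME1, was lowest in growing wild type. This kinase gene stood at an RPKM of 55.0 in both starved libraries, with 33.6 in the growing deletion and 18.5 in growing wild type. The genotype ratio was 1.0 in starved cells (0.925 to 1.08) and 1.81 in growing cells (1.62 to 2.02), log2 folds of 0.00 and 0.82, the starved one varying in sign with the scaling between -0.14 and 0.10. The starved level was 1.64 times the growing level in the deletion (1.51 to 1.78) and 2.97 times in wild type (2.66 to 3.31), the largest wild-type starvation ratio among the 6. The growing deletion lay between growing wild type and both starved libraries. RIM11 is on chromosome XIII (YMR139W, 546125 to 547237, plus strand). Its nearest profiles were PCL10, a cyclin of the Pho85 kinase that acts in glycogen metabolism, at 0.03, and ATG17, a scaffold protein of autophagosome formation, at 0.05. The downstream neighbour SIP5 had genotype log2 folds of 0.36 starved and 0.66 growing.

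IME4 was lower in the starved deletion, at an RPKM of 52.6, than in starved wild type, at 74.9. In growing cells it was 34.4 in the deletion and 30.8 in wild type. The ratio was 0.702 in starved cells (0.663 to 0.744; log2 fold -0.50) and 1.12 in growing cells (1.04 to 1.20; 0.16), neither at 2-fold. Starved wild type was the highest library. The starved level was 2.43 times the growing level in wild type (log2 fold 1.26) and 1.53 times in the deletion (0.60).

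What this value counts is uncertain, since RME2 covers 100% of the IME4 ORF on the opposite strand. IME4 is on the plus strand of chromosome VII (YGL192W, 142246 to 144048), and RME2 runs from 141898 to 144120 on the minus strand. The sources used here do not say whether reads were assigned by strand, so sense and antisense RNA cannot be told apart. A second ORF of the table, YGL193C, lies inside RME2 and on its strand, 18 bp before IME4 without overlapping it. Its RPKM was 19.9 in the starved deletion and 27.9 in starved wild type, and 13.4 in the growing deletion and 12.1 in growing wild type. Its log2 folds were -0.46 for genotype in starved cells and 0.14 in growing cells, and 0.54 for starvation in the deletion and 1.14 in wild type, close to those of IME4 given above. Its profile, at a distance of 0.05, ranked 17 of 6677 other ORFs in likeness to IME4. The closest among ORFs that reached an RPKM of 10 were VAB2, at 0.01, and DFG10, at 0.03.

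The partners of Ime4 did not share one direction. Of the 6 genes for its methyltransferase complex and for the methyl-adenosine reader Pho92, 1 was at least 2-fold lower in the deletion in each medium and none higher, against 5.14% of all ORFs lower starved and 2.95% growing. This was KAR4, also a transcription factor of the mating response, with an RPKM of 132 in the starved deletion against 530 in starved wild type, and 25.1 in the growing deletion against 219 in growing wild type. PHO92 was at genotype log2 folds of 0.84 starved and 0.50 growing, MUM2 at -0.64 and -0.07, and SLZ1 at 0.43 and 0.07. SLZ1, the subunit induced early in meiosis, had an RPKM of 21.1 in the starved deletion and 4.84 in the growing deletion, and 15.4 in starved and 4.56 in growing wild type. After starvation, 3 of the 6 were at least 2-fold higher in the deletion and 3 in wild type, where median-of-ratios or upper-quartile scaling left 1. Of all ORFs, 21.6% were higher in the deletion and 31.5% in wild type.

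IME2, the kinase gene downstream of Ime1, was higher after starvation in both genotypes. Its RPKM was 12.1 in the starved deletion (11.1 to 13.2) and 8.42 in starved wild type (7.52 to 9.39), and 4.29 in the growing deletion (3.75 to 4.89) and 3.47 in growing wild type (2.94 to 4.06). The 2 starved libraries were above the 2 growing ones, and the deletion was above wild type in each medium. Starvation ratios were 2.82 in the deletion (2.41 to 3.31; log2 fold 1.31) and 2.43 in wild type (2.00 to 2.96; 1.08). The genotype ratio was 1.44 in starved cells (1.25 to 1.66; log2 fold 0.48) and 1.24 in growing cells (1.01 to 1.53; 0.25). Both URS1 cores shown above lie before this gene (chromosome X, YJL106W, 221390 to 223327, plus strand). Its nearest profiles were NRK1, a nicotinamide riboside kinase, at 0.04, and YAL019W-A, at 0.05. Among all 6678 ORFs the IME2 level stood at percentile 15.5 in the starved deletion, 10.1 in starved wild type, 10.6 in the growing deletion and 8.6 in growing wild type.

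NDT80, the activator of middle meiotic genes, differed from the other 5 in being lower in the deletion in both media by more than 2-fold. Its RPKM was 4.83 in the starved deletion (4.18 to 5.55) and 14.8 in starved wild type (13.6 to 16.1). In growing cells it was 5.58 in the deletion (4.95 to 6.26) and 14.4 in wild type (13.3 to 15.6). The deletion libraries were both low and the wild-type libraries both high, with no overlap of the counting intervals between genotypes. The ratio was 0.325 in starved cells (0.275 to 0.384; log2 fold -1.44) and 0.386 in growing cells (0.335 to 0.445; -1.23). With a pseudocount of 5 the growing fold was -0.88. These were the 169th lowest fold of the table in starved and the 128th lowest in growing cells. Starvation left the NDT80 level near its growing value in each genotype, with log2 folds of -0.18 in the deletion and 0.04 in wild type, where the sign of the wild-type value turned with median-of-ratios and upper-quartile scaling.

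The nearest ORF downstream of NDT80 was also lower in the deletion. NDT80 lies on chromosome VIII (YHR124W, 356561 to 358444, plus strand), followed by a tRNA gene and then by YHR125W. YHR125W had an RPKM of 2.39 in the starved deletion and 18.6 in starved wild type, and 0.119 in the growing deletion and 1.42 in growing wild type. EPT1, the gene before NDT80, which makes phospholipids, was higher in the deletion, with genotype log2 folds of 0.62 starved and 0.21 growing. The nearest profile to NDT80 was that of CRR1, a spore wall protein gene, at a distance of 0.19. Its RPKM was 4.69 in the starved deletion, 10.6 in starved wild type, 3.61 in the growing deletion and 10.3 in growing wild type. The second was AQY2, an aquaporin gene, at 0.21. The 3 genes of the repressor complex known to act at NDT80 are SUM1, RFM1 and HST1. Their genotype log2 folds were -0.38, -0.23 and -0.05 in starved cells and -0.07, -0.33 and 0.05 in growing cells. None of the 3 was at 2-fold, a count near the background of 10.1% of all ORFs starved and 6.69% growing.

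**Figure D3:**
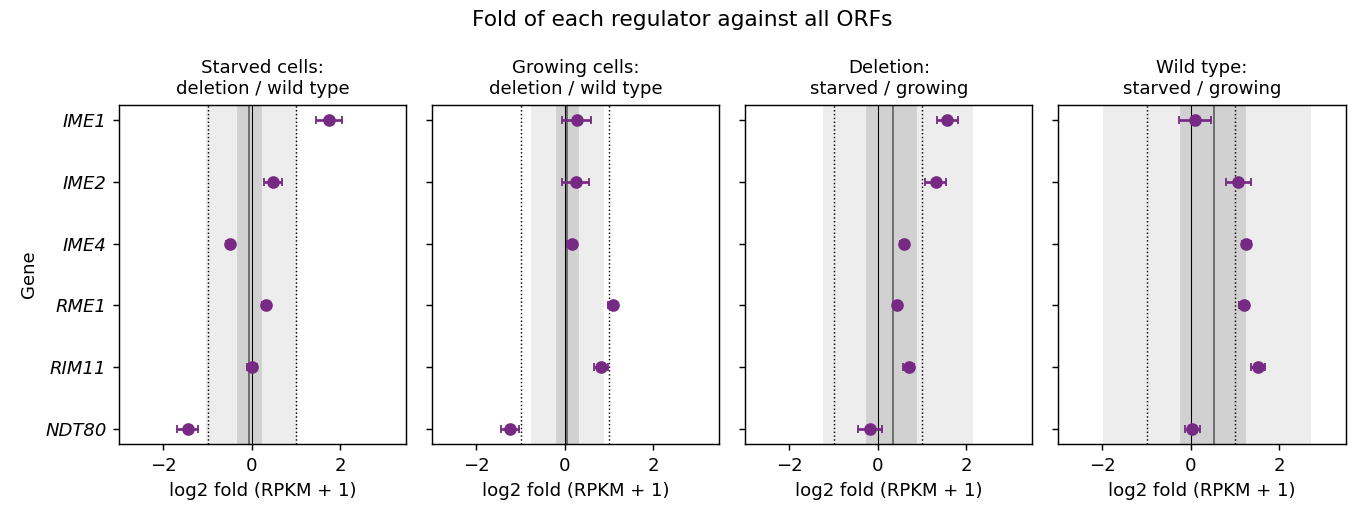
Log2 fold of each regulator on the scale of RPKM + 1 in the 4 comparisons, named above each panel with the first group over the second. Whiskers are the widths of the 95% counting intervals of the RPKM ratios, dotted lines mark 2-fold, and grey bands hold the central 50% (dark) and 90% (light) of all 6678 ORFs, with their median as a grey line. IME1 at 1.74 and NDT80 at -1.44 lie outside the light band in starved cells, and RME1 at 1.09 and NDT80 at -1.23 in growing cells.

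Counted together, 2 of the 6 regulators were at least 2-fold apart between genotypes in starved cells, IME1 higher and NDT80 lower, against 10.1% of all ORFs (4.94% higher and 5.14% lower). In growing cells RME1 was higher and NDT80 lower, again 2 of 6, against 6.69% of all ORFs (3.74% higher and 2.95% lower). The growing count was 1 with a pseudocount of 5 (RME1) and 1 with median-of-ratios scaling (NDT80). The starved count was 2 under all 6 alternative settings. The median genotype log2 fold of the 6 was 0.16 in starved and 0.26 in growing cells, where the medians over all ORFs were -0.05 and 0.05.

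Without rescaling, starvation gave more 2-fold differences among the 6 in wild type than in the deletion, as it did over the whole table. Among the 6 this order turned with median-of-ratios and upper-quartile scaling. In the deletion, 2 of 6 (IME1 and IME2) were at least 2-fold higher and none lower, against 21.6% of all ORFs higher and 7.97% lower (29.5% in all). In wild type, 4 of 6 (IME2, IME4, RME1 and RIM11) were at least 2-fold higher and none lower, against 31.5% of all ORFs higher and 12.2% lower (43.7% in all). The median over all ORFs was itself 0.35 in the deletion and 0.52 in wild type. With median-of-ratios scaling, which brings those medians to 0.04 each, RIM11 alone stayed at 2-fold in wild type, as also with upper-quartile scaling. IME1 and IME2 both stayed at 2-fold in the deletion under these scalings, and with a pseudocount of 5 IME1 alone did.

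The order of the levels changed between libraries. In the starved deletion it ran RME1, RIM11, IME4, IME1, IME2 and NDT80, and the counting intervals of RIM11 and IME4 overlapped. In starved wild type it ran RME1, IME4, RIM11, NDT80, IME2 and IME1, with no overlap between neighbours. In the growing deletion the order was RME1, IME4, RIM11, IME1, NDT80 and IME2, where IME4 overlapped RIM11 and IME1 overlapped NDT80. In growing wild type it was RME1, IME4, RIM11, NDT80, IME1 and IME2, with no overlap. NDT80 thus stood above IME1 and IME2 in both wild-type libraries and below both in the starved deletion.

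Genes known to act on IME1 were examined as 2 lists. None of the 11 positive regulators was at 2-fold between genotypes in either medium, a count near the background of 10.1% of all ORFs starved and 6.69% growing. The medians of the 11 were -0.13 starved and 0.09 growing. After starvation, 6 of the 11 were at least 2-fold higher in the deletion and 7 in wild type, none lower, against 21.6% of all ORFs higher in the deletion and 31.5% in wild type. RIM8, of the pathway that activates the transcription factor Rim101, was at 2.75 in the deletion and 2.73 in wild type. RIM101 itself was at 1.68 in the deletion and 2.33 in wild type, and MSN4, a stress transcription factor, at 2.02 and 2.21. Of the 13 negative regulators, none was at 2-fold between starved genotypes (1 higher with median-of-ratios or upper-quartile scaling), while 2 were higher and 1 lower in the growing deletion. Of all ORFs, 10.1% were at 2-fold in either direction starved, and 3.74% were higher and 2.95% lower growing. TPK2, for a catalytic subunit of protein kinase A, which holds meiosis back when nutrients are plentiful, had an RPKM of 63.1 in the growing deletion and 18.3 in growing wild type. The lower gene, CYC8, a general corepressor, was at 8.24 in the growing deletion and 18.0 in growing wild type, and lost 2-fold with a pseudocount of 5.

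UME6 was higher in the deletion in both media. Its RPKM was 30.8 in the starved deletion and 12.4 in starved wild type (log2 fold 1.25), and 29.6 in the growing deletion and 16.2 in growing wild type (0.83). The other 4 genes of its list, SIN3, RPD3, UME1 and ISW2, lay between -0.38 and 0.11 in both genotype comparisons. UME6 was thus past 2-fold between starved genotypes, as were 4.94% of all ORFs in that direction. None of the 5 was at 2-fold after starvation in either genotype, against 29.5% of all ORFs in the deletion and 43.7% in wild type.

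Early meiotic genes, the known targets of Ime1 and Ume6, had genotype medians of 0.53 in starved and 0.56 in growing cells, where those over all ORFs were -0.05 and 0.05. Of 20 such genes, 5 were at least 2-fold higher and 2 lower in the starved deletion, and 7 higher and 1 lower in the growing deletion. Over all ORFs the shares were 4.94% higher and 5.14% lower starved, and 3.74% higher and 2.95% lower growing. With a pseudocount of 5, 3 were higher in growing cells. MND1, for strand exchange in recombination, had an RPKM of 125 in the starved deletion and 27.4 in starved wild type, and 30.1 in the growing deletion and 3.17 in growing wild type. SAE3, which assists the recombinase Dmc1, stood at 54.2 in the starved deletion and 10.3 in starved wild type, and 39.2 in the growing deletion and 9.62 in growing wild type. MSH5, a crossover protein gene, went the other way, at 3.57 in the starved deletion and 39.6 in starved wild type, and 1.97 and 13.3 in the growing deletion and growing wild type. A URS1 core stood in the 600 bases before 14 of the 20 genes (70.0%), MND1 and MSH5 not among them, a list in which such sites are already known to be common.

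After starvation, 8 of the 20 early genes passed 2-fold upward in the deletion and 13 in wild type, none lower in either, against 21.6% of all ORFs higher in the deletion and 31.5% in wild type. The medians were 0.89 in the deletion and 1.23 in wild type, where those over all ORFs were 0.35 and 0.52. Median-of-ratios scaling left 5 in the deletion and 7 in wild type, and a pseudocount of 5 also left 7 in wild type. RIM4, which encodes an RNA-binding protein needed for meiosis, had an RPKM of 25.5 in the starved and 3.24 in the growing deletion, and 16.0 in starved and 3.40 in growing wild type. REC114, for double-strand break formation, stood at 52.7 in the starved and 23.1 in the growing deletion, and at 37.0 in starved and 8.11 in growing wild type.

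Middle sporulation genes, the known targets of Ndt80, were examined beside NDT80. Of 22 such genes, 12 were at least 2-fold lower in the starved deletion and none higher, against 5.14% and 4.94% of all ORFs. In growing cells 3 were lower and none higher, against 2.95% and 3.74%. The medians were -1.05 starved and -0.44 growing. Below 0 lay 20 genes in starved and 19 in growing cells, against 55.9% and 43.8% of all ORFs. In both media 17 genes did (77.3%), against 30.2% of all ORFs. SPO21, of the meiotic spindle pole body, had an RPKM of 2.23 in the starved deletion and 12.7 in starved wild type. In growing cells it was nearly level, at 2.19 in the deletion and 2.43 in wild type. PES4, which encodes an RNA-binding protein, was at 8.38 in the starved deletion and 35.2 in starved wild type. Its growing levels were 5.66 in the deletion and 6.88 in wild type. CDA1, for a chitin deacetylase of the spore wall, had a log2 fold of -1.90 in starved and -0.90 in growing cells. SMK1, a kinase of spore formation, was at 6.56 in the starved deletion and 24.3 in starved wild type, and 7.24 and 13.2 in the growing deletion and growing wild type. SSP1, for the growth of the prospore membrane, stood at 0.598 in the starved deletion and 4.93 in starved wild type, and 1.01 and 10.2 in the growing deletion and growing wild type.

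Many of these genes were near the low end of the table, which limits the count. Between starved genotypes, 10 of the 22 reached an RPKM of 5 in at least 1 library. With a pseudocount of 5, 4 were 2-fold lower in starved cells and 1 in growing cells, and the medians were -0.52 and -0.21. With the requirement of an RPKM of 10 the counts were also 4 and 1. That requirement shortens the list as well, so these counts are not out of 22, and a smaller count is not in itself a smaller share. The genes of the list that met it had genotype medians of -1.74 starved and -0.33 growing. Of all ORFs that met the requirement, 4.13% were lower starved and 2.08% growing. With a pseudocount of 0.1, 14 were lower in starved and 6 in growing cells, with medians of -1.42 and -0.6. Median-of-ratios scaling left 8 lower in starved and 4 in growing cells, with medians of -0.93 and -0.53. After starvation, 2 were at least 2-fold higher and 2 lower in the deletion, and 7 higher and 2 lower in wild type. The shares of the 22 in wild type, 31.8% higher and 9.09% lower, lay near those of all ORFs, 31.5% and 12.2%. In the deletion they were 9.09% in each direction, against 21.6% of all ORFs higher and 7.97% lower. With a pseudocount of 5 these counts were 1 and 1 in the deletion, and 4 and 1 in wild type. CLB1, a B-type cyclin also used in mitotic growth, was at 18.7 in the starved deletion and 32.1 in starved wild type, and 96.5 and 88.4 in the growing deletion and growing wild type. SGA1, a glucoamylase gene, was level between genotypes after starvation, at 28.2 in the deletion and 27.7 in wild type, against 1.82 in the growing deletion and 2.13 in growing wild type. The MSE stood in the 600 bases before 17 of the 22 genes (77.3%), a list in which it is already known to be common.

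**Figure D4:**
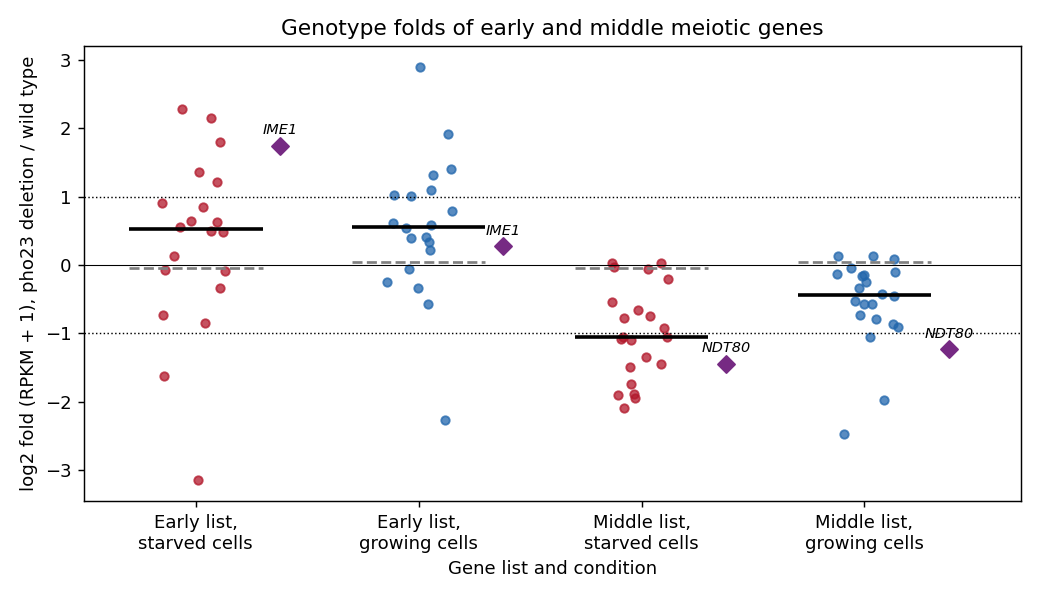
Genotype log2 folds (pho23 deletion over wild type, RPKM + 1) of the 20 early and 22 middle meiotic genes in starved (red) and growing (blue) cells, 1 point per gene, spread sideways at random. Black bars are list medians, dashed grey bars the medians of all ORFs, dotted lines 2-fold, and diamonds the values of IME1 and NDT80. The middle genes in starved cells have a median of -1.05 beside NDT80 at -1.44. With a pseudocount of 5 these values are -0.52 and -1.01. The early genes spread to both sides of 0 around medians of 0.53 and 0.56.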

How the data were processed

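The authors sequenced 1 RNA library for each genotype and medium, 4 in all. CASAVA 1.8.2 (base calling), Bowtie2 2.1.0 (alignment) and the build sacCer3 are named in the submitters' processing notes. Values were deposited as RPKM for each ORF. Which counting tool and annotation were used, and whether strand was, is not given in the sources used here.

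Folds were computed as log2 of the ratio of (RPKM + 1), without rescaling or a filter, over all 6678 ORFs, and a value of at least 1 or at most -1 was counted as 2-fold. The pseudocount understates changes of low genes. Symbols and positions came from RefSeq R64, which holds 5997 of the ORFs. The other 681 have no position here. Depth was estimated as the number of reads, searched between 15 and 35 M (M, 1000000), that placed most values of 0.5 to 30 reads within 0.1 of a whole number. Between 43.1% and 54.7% did so, against 20% by chance at 1 fixed depth. The best depth of the search was kept, so 20% is not the chance level for that maximum. Doubled depths gave 48.0% to 53.1%, so the estimate is rough. In both growing libraries the doubled depth, which lay outside the search, fitted better than the one kept. It gave 48.1% against 43.1% in the growing deletion and 48.0% against 47.1% in growing wild type. In both starved libraries the kept depth fitted better. The lower depth gives the wider intervals. Intervals are exact Poisson for levels and exact binomial (Clopper-Pearson) for ratios. Python 3.11.15, pandas 2.3.3, scipy 1.17.1 and Biopython 1.88 were used, and the fold calculation was tested on simulated data. No model was fitted across the libraries.

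The 6 genes and the 7 pathway lists (80 genes) were chosen with earlier results of these data known. Up to 3 genes per list and comparison with an RPKM of at least 5, and the 2 nearest profiles, were eligible to be named, as were adjoining genes. SMK1, SGA1 and SSP1 between starved genotypes, and SPO21, PES4 and CDA1 between growing genotypes, were chosen after their values were seen. So were CLB1, SLZ1 and MUM2 where that rule did not reach them, and genes named only to complete a list. Alternatives were pseudocounts of 0.1 and 5, an RPKM of at least 10 in 1 library compared, and scaling by median of ratios, equal sums or upper quartile. The values of 1 gene counted in a pathway list are not reported here.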

Additional observations from a re-analysis of the deposited data

Results flagged for a closer look

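The folds below point in opposite directions in the paired groups. With 1 library per group none of these differences was tested, and several lie close to 0. IME4 had genotype log2 folds of -0.50 in starved and 0.16 in growing cells. HOP2, an early meiotic gene for homologous pairing, was at -1.62 in starved and 1.31 in growing cells, with an RPKM of 7.43 in the starved deletion and 24.9 in starved wild type, and 11.7 in the growing deletion and 4.09 in growing wild type. NDT80 had starvation log2 folds of -0.18 in the deletion and 0.04 in wild type. Among list medians, the positive regulators of IME1 had genotype values of -0.13 starved and 0.09 growing, and Ume6 with its corepressor 0.04 starved and -0.12 growing. The Ume6 list had starvation medians of 0.06 in the deletion and -0.17 in wild type, and its sign turned with scaling in both, to -0.27 in the deletion with median-of-ratios and 0.12 in wild type with equal-sum scaling. Starvation medians were for the negative regulators of IME1 -0.11 in the deletion and 0.04 in wild type, the first turning to 0.06 with equal-sum and the second to -0.47 with median-of-ratios scaling. The sign of the NDT80 value in wild type also turned with scaling, as did the starved Ume6 median, to -0.10 with equal-sum scaling.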

How the results depend on the processing

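No paired analysis was possible because each group has 1 library. The count of regulators at 2-fold between growing genotypes was 2, and 1 with a pseudocount of 5 and 1 with median-of-ratios scaling. For starvation in wild type it was 4, and 1 with median-of-ratios and 1 with upper-quartile scaling. For starvation in the deletion it was 2, and 1 with a pseudocount of 5. The counts between starved genotypes (2) and for the difference of starvation folds (1) did not move under any of the 6 alternatives. Over these alternatives the genotype fold of IME1 in starved cells ranged between 1.31 and 1.89, that of NDT80 between -1.60 and -1.01 in starved and -1.36 and -0.88 in growing cells, and that of RME1 in growing cells between 1.0 and 1.10. RIM11 between starved genotypes ranged between -0.14 and 0.10. Estimated reads behind a regulator ran between 122 (IME1, starved wild type) and 3133 (RME1, starved deletion). At the low end counting error alone left some ratios unresolved, as for IME1 between media in wild type (0.839 to 1.40). No value has a replicate library behind it.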
